A study of Caenorhabditis elegans with 13 samples.

Results

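MicroRNAs in old adult worms were compared with those in young adults: the libraries of adult day 10 were set against those of adult day 4, each diet against itself. All 6 libraries came from whole bodies of N2, the standard wild-type laboratory strain of Caenorhabditis elegans, and the members are these 6 of the 13 libraries of the series. Day 4 and day 10 each hold 3 libraries, 1 from animals fed ad libitum (AL), 1 labelled CR and 1 labelled IF. The labels describe neither the CR nor the IF regimen. In the study, miRNAs were profiled along adult age under these diets, and its title places it in work on dietary restriction and longevity. A mature miRNA was tested when it had at least 10 reads in at least 3 of the 6 libraries, which 193 of the 434 listed mature miRNAs did.

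A miRNA is cut from a hairpin precursor whose stem gives a 5p and a 3p strand. Usually the more abundant strand, the guide arm, is kept in an Argonaute protein and lowers the output of mRNAs that pair with its seed, while the other strand, the passenger arm, is degraded. In C. elegans, miRNAs time larval development, several are made chiefly in the germ line and embryo or in single tissues such as muscle, intestine or glia, and loss of some of them shortens or lengthens adult life.

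The libraries held 5143918 (AL), 3556875 (CR) and 2639586 (IF) miRNA reads on day 4 and 4872861, 3909193 and 3636435 on day 10. Levels are in CPM, the counts relative to library size, after trimmed mean of M values (TMM) scaling, and 3 reads correspond to 0.583 to 1.137 CPM in these libraries before that scaling. The TMM factor was 0.6035 for the AL library of day 4 and 0.8996 to 1.3721 for the others. The scaling thus raised the AL levels of day 4 most, relative to their shares of reads. The bantam-like miR-58a-3p alone took 66.5%, 47.5% and 36.0% of the day 4 reads and 48.5%, 37.9% and 41.1% of the day 10 reads in AL, CR and IF. Counting error was small, with 95% Wilson intervals of such shares at most 0.116 percentage points wide, and covers sampling of reads only. Across miRNAs, log2 CPM of libraries of the same day had a Pearson r of 0.924 to 0.958 on day 4 and 0.971 to 0.985 on day 10, and libraries of different days one of 0.877 to 0.921. Each diet gave 1 library per day and nothing in the labels says that libraries came from separate cultures, so the p-values measure only the spread between these libraries. Age and anything else that the libraries of a day share cannot be told apart.

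Between day 4 and day 10, 31 of 193 tested miRNAs (16.1%) changed at an adjusted p under 0.05 in edgeR's quasi-likelihood test with diet as a block. Of these, 16 (8.29%) were higher and 15 (7.77%) lower on day 10. Every one of the 31 moved the same way in 3 of 3 diets, and in 30 of them the day 4 and day 10 libraries did not overlap, with miR-83-3p as the exception. Over all 193, the ranges of the 2 days were apart in 39.4% (19.7% with day 10 above and 19.7% with day 10 below), and 26.9% were higher and 23.8% lower in every diet. Fold changes ran from -6.30 to 5.35 on the log2 scale around a median of 0.10. The largest drops were those of miR-36-3p, of the mir-35 family, and of several 5p arms, and the largest rises those of miR-239b-3p, miR-64-5p, miR-4808-3p, miR-4923a and miR-63-3p.

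How many passed depended strongly on the AL pair. With both AL libraries left out, edgeR called 0 of 181 (29 at an unadjusted p under 0.05) and limma-voom called 0, while DESeq2 called 27, of which 21 were among the 31; all 27 of the 31 that could still be tested kept their sign. Without the AL library of day 10 edgeR called 3, without that of day 4 it called 16, without the CR library of day 10 or of day 4 16 and 17, and without the CR pair 14. Leaving out IF raised the count: without its library of day 10 or of day 4 edgeR called 39 and 36, and without the IF pair 34. The split also moved with the scaling: scaled to total counts, 20 were higher and 9 lower and the median of all miRNAs was 0.46, while with the 3 most abundant miRNAs left out of the totals 8 were higher and 13 lower and the median was -0.04. No called miRNA changed sign under any of these.

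**Figure D1:**
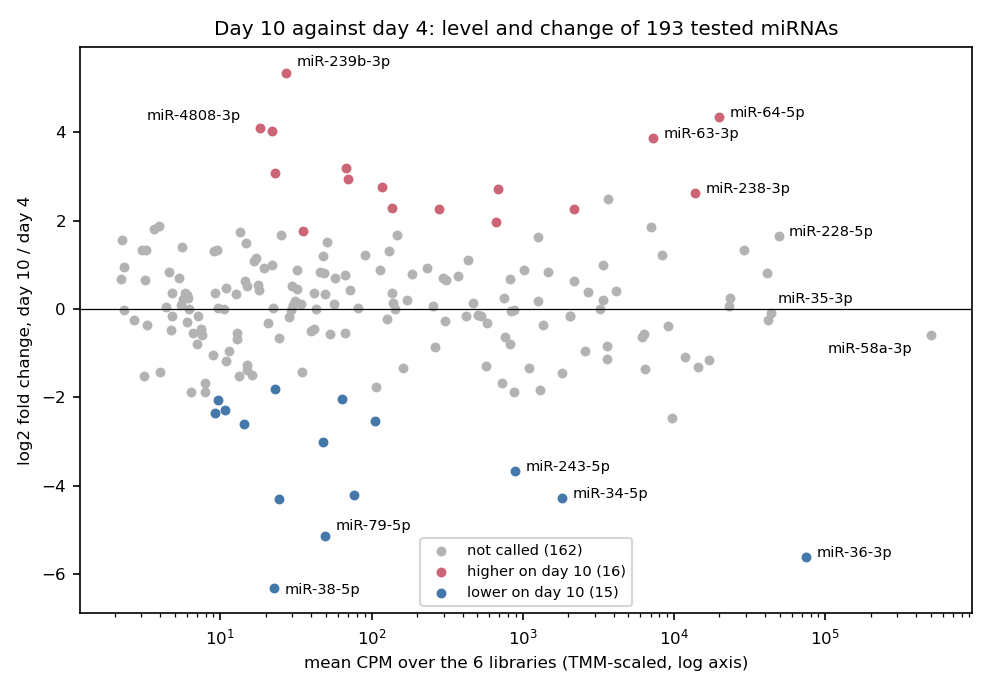
Mean level of each of the 193 tested miRNAs over the 6 libraries (CPM, log axis) against its log2 fold change from day 4 to day 10, with the 16 called higher and the 15 called lower marked. The called miRNAs span low and high levels, and the fold changes lie between -6.30 and 5.35.

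The abundant miRNA with the largest drop was miR-36-3p, a guide arm of the mir-35 family, whose members are supplied by the mother to the egg and are required for embryos to survive. Its level was 110657, 76448 and 252743 CPM in AL, CR and IF on day 4 and 2794, 2112 and 3069 CPM on day 10. The lowest day 4 library was 24.9 times above the highest day 10 library. The change was -5.61 ± 0.56 on the log2 scale (SE), a 48.9-fold drop, with an edgeR adjusted p of 0.000574. In reads, miR-36-3p went from 6.68%, 9.44% and 22.7% of the libraries to 0.266%, 0.242% and 0.421%. In whole worms, fewer cells of a type and less RNA per cell cannot be told apart.

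The rest of the family did not share this size of change. Of the 8 guide arms tested, only miR-36-3p was called, 7 had a fold change below 0, 5 were lower in 3 of 3 diets, and the median was -1.11. Over all tested miRNAs, 7.77% were called lower, 88 of 193 had a fold change below 0 and 23.8% were lower in 3 of 3 diets. The most abundant of the others on day 10, miR-35-3p, had 33459, 40449 and 63935 CPM on day 4 and 37004, 36760 and 52518 CPM on day 10. These ranges overlapped almost fully, with a difference of -0.09 ± 0.44 (edgeR adjusted p = 0.926) whose sign turned positive under total-count scaling. miR-37-3p had 7646, 14567 and 48220 CPM against 9882, 24818 and 36508, with a difference of 0.25 ± 0.49 (edgeR adjusted p = 0.796). miR-38-3p, miR-39-3p and miR-40-3p had differences of -1.10, -1.15 and -1.13 and miR-41-3p one of -1.66 ± 0.62, none past the threshold. Summed, the 8 guide arms made up 11.8%, 20.2% and 39.7% of the day 4 reads and 6.46%, 9.60% and 16.1% of the day 10 reads. Most of that fall was miR-36-3p itself, which went from 6.68%, 9.44% and 22.7% to 0.266%, 0.242% and 0.421%. The sum therefore does not describe the rest of the family. The hairpins mir-35 to mir-41 lie within chromosome II, 11537608 to 11538404 (WBcel235, plus strand), opposite an intron of Y62F5A.9, with mir-36 at 11537713 to 11537809. Members of the family share most of their sequence, so the authors' counting could have split reads between them.

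**Figure D2:**
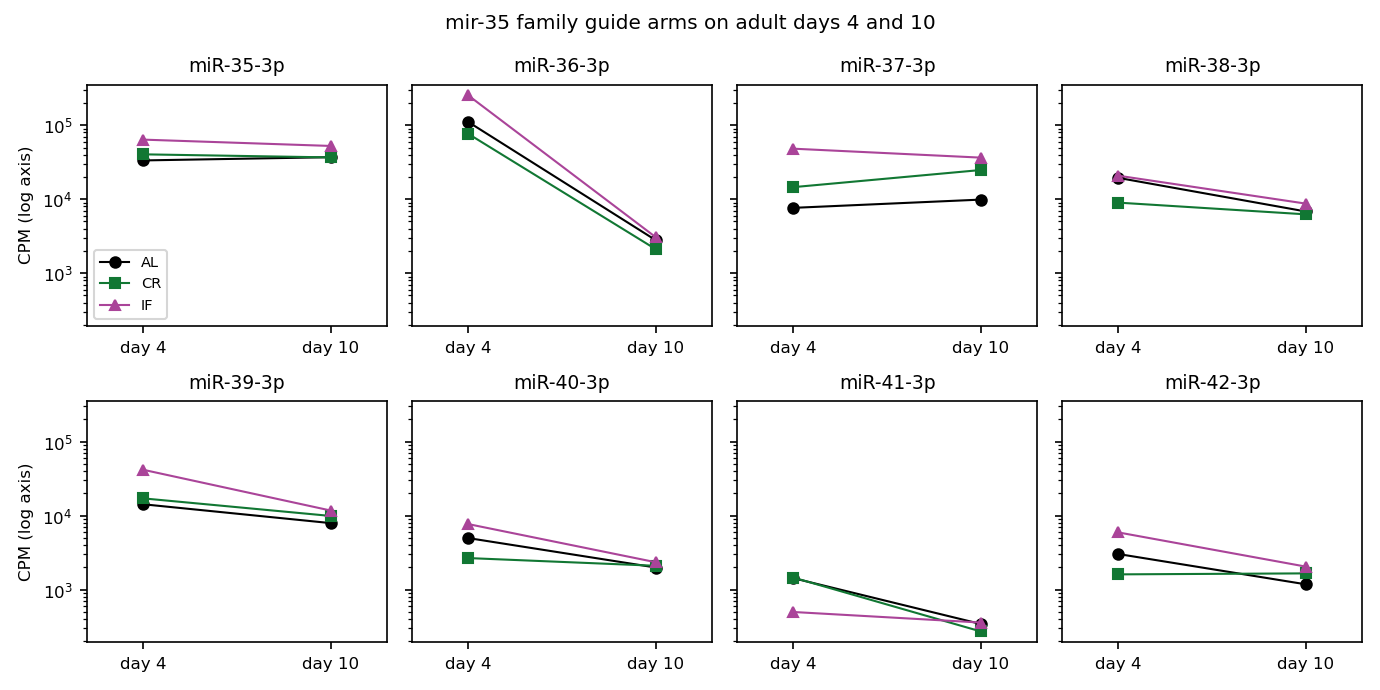
Levels of the mir-35 family guide arms (CPM, log axis) in the 3 day 4 and 3 day 10 libraries, points by diet. miR-36-3p drops from at least 76448 CPM to at most 3069 CPM, while the day 4 and day 10 points of miR-35-3p and miR-37-3p overlap.

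Of the 6 passenger arms of the same family that were tested, 3 were called, all lower, where 7.77% of all tested miRNAs were called lower. Since miR-38-5p, 1 of the 3, was tested only through its day 4 reads, nothing is read from this count. miR-37-5p had 44.8, 24.6 and 69.9 CPM on day 4 and 4.96, 2.01 and 0.601 CPM on day 10. miR-38-5p had 189, 185 and 73 reads on day 4 and 4, 0 and 4 reads on day 10, so its fitted change of -6.30 ± 0.83 (edgeR adjusted p = 0.00145) rests on very few late reads. It passed the read filter only through the day 4 libraries. miR-42-5p, from a hairpin in a separate cluster on chromosome II, had 58.9, 88.8 and 291 CPM on day 4 and 7.77, 4.03 and 7.62 CPM on day 10. All 3 were lower in every diet with no overlap, by -4.29 ± 0.79 for miR-37-5p (edgeR adjusted p = 0.00643) and -4.22 ± 0.65 for miR-42-5p (edgeR adjusted p = 0.00277). The guide arms of these hairpins were not called. Of the other passenger arms, miR-35-5p had a difference of -1.42 ± 0.53, miR-39-5p, a low one, -1.89 ± 0.60, and miR-41-5p, higher on day 10 in every diet, 0.89 ± 0.48, none past the threshold.

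Outside that family, miR-34-5p fell in every diet. miR-34 is a conserved miRNA of the stress response whose mammalian relatives are switched on by p53, and worms lacking it have been reported to live longer. Its level was 2947, 3984 and 3423 CPM on day 4 and 185, 112 and 266 CPM on day 10. After TMM scaling the day 4 libraries were close to each other, and all were far above those of day 10. As shares of reads the day 4 libraries were less alike, with 0.178%, 0.492% and 0.308%, against 0.0176%, 0.0128% and 0.0365% on day 10. The drop was 19.3-fold, -4.27 ± 0.64 on the log2 scale (edgeR adjusted p = 0.00277). Its hairpin is intergenic on chromosome X, 2969752 to 2969848 (minus strand).

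After TMM scaling, the libraries of a day were also close to each other for miR-243-5p. Its hairpin gives a product known to enter the Argonaute RDE-1 and start secondary siRNA synthesis. miR-243-5p had 1722, 1444 and 1774 CPM on day 4 and 153, 110 and 127 CPM on day 10. That is a 12.8-fold drop, -3.67 ± 0.57 (edgeR adjusted p = 0.00277). The opposite arm, miR-243-3p, stood at 656, 311 and 61.1 CPM and then 475, 426 and 308 CPM, ranges that overlapped. The hairpin lies in an intron of R08C7.12 on chromosome IV, 4450779 to 4450876 (plus strand).

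Among the smaller signals, miR-79-5p came from a hairpin whose 3p arm acts in the hypodermis on proteoglycan synthesis. It fell from 48.3, 45.3 and 198 CPM to 2.16, 1.79 and 2.61 CPM (-5.13 ± 0.64, edgeR adjusted p = 0.00145). miR-232-3p fell from 114, 54.9 and 87.2 CPM to 10.4, 12.1 and 8.22 CPM (-3.02 ± 0.54, edgeR adjusted p = 0.00549). The miR-793 level, from a hairpin with a let-7-like seed, went from 145, 156 and 245 CPM to 29.6, 33.8 and 28.9 CPM. Groups were apart for each of these, and the day 10 libraries lay within a narrow band. miR-793 changed by -2.52 ± 0.51 (edgeR adjusted p = 0.0114). miR-2-5p, a passenger arm of the mir-2 family, went from 30.6, 32.6 and 11.8 CPM to 3.45, 3.35 and 4.61 CPM (-2.60 ± 0.62, edgeR adjusted p = 0.0248). The other 5 called lower were miR-254-3p, miR-229-3p, miR-1830-3p, miR-8196a-3p and miR-82-5p, with changes from -2.36 to -1.81 and edgeR adjusted p from 0.0336 to 0.0441; the last pair named were low, with a mean under 10 CPM. miR-229-3p lost its call under 4 other settings (3 scalings and no filter), and under 1 or 2 of these the call was also lost by miR-82-5p, miR-1830-3p, miR-2-5p, miR-254-3p and miR-8196a-3p.

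Of the miRNAs that rose, the steepest was miR-239b-3p, the passenger arm of a hairpin linked to heat stress and lifespan. It was near the floor on day 4, with 6, 6 and 1 reads, and had 228, 195 and 331 reads on day 10. In CPM that is 1.93, 1.37 and 0.421 against 49.2, 43.6 and 66.3, with a gap of 22.6 times between the highest young and the lowest old library. The change was 5.35 ± 0.69 (edgeR adjusted p = 0.00145). Its partner miR-239b-5p moved the other way in value, from 3067, 1022 and 2094 CPM to 451, 413 and 771 CPM, a difference of -1.83 ± 0.59 that missed the threshold (edgeR adjusted p = 0.0651). miR-239b-3p passed the read filter only through the day 10 libraries. Its hairpin is intergenic on chromosome X, 11791302 to 11791399 (minus strand).

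miR-63-3p, an abundant miRNA of chromosome X, reached 10950, 20302 and 9700 CPM on day 10 from 1269, 620 and 871 CPM on day 4. The 2 groups were well apart, and the rise was 14.5-fold (3.86 ± 0.64, edgeR adjusted p = 0.00394). miR-64-5p, of the mir-64 family, had 1065, 784 and 6330 CPM on day 4 and 68630, 28155 and 14099 CPM on day 10. The groups did not overlap, and the rise was largest in AL and smallest in IF (4.34 ± 1.08, edgeR adjusted p = 0.0262). Its hairpin lies in an intron of gcn-1 on chromosome III, 2172848 to 2172957 (plus strand). From the same hairpin cluster, miR-65-5p had 1050, 625 and 1240 CPM and then 5716, 11131 and 2231 CPM without reaching the threshold (2.48 ± 0.76, edgeR adjusted p = 0.0551).

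miR-238-3p, whose loss shortens life and sensitises worms to heat, rose from 4072, 1809 and 6269 CPM to 26470, 31097 and 12905 CPM. Day 4 lay wholly below day 10, and the change was 2.62 ± 0.71 (edgeR adjusted p = 0.0356). miR-49-3p and miR-83-3p, which share a seed with the vertebrate miR-29 family, were both called higher. miR-49-3p had 307, 883 and 889 CPM on day 4 and 1238, 3590 and 6143 CPM on day 10, a change of 2.27 ± 0.55 (edgeR adjusted p = 0.0248). miR-83-3p, which restrains autophagy in ageing worms, had 34.5, 11.6 and 3.79 CPM and then 103, 235 and 29.7 CPM. Each diet rose, but its IF library of day 10 lay under the AL library of day 4, and the change was 2.95 ± 0.67 (edgeR adjusted p = 0.0214).

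miR-62, made from an intron of ugt-50 on chromosome X (12692608 to 12692665, plus strand), had 213, 114 and 169 CPM on day 4 and 609, 923 and 2067 CPM on day 10. The change was 2.72 ± 0.65 (edgeR adjusted p = 0.0248). miR-786-3p, an intestinal miRNA needed for the defecation rhythm, rose from 49.9, 19.4 and 27.0 CPM to 154, 248 and 210 CPM (2.76 ± 0.60, edgeR adjusted p = 0.0164). miR-357-3p, encoded opposite an intron of symk-1, rose from 3.22, 5.47 and 5.47 CPM to 26.5, 59.5 and 37.5 CPM (3.09 ± 0.53, edgeR adjusted p = 0.00455). Each of these had day 10 libraries wholly above those of day 4.

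Further low-level rises concerned miR-47-5p, with 16.1, 39.0 and 2.11 CPM on day 4 and 142, 102 and 106 CPM on day 10 (3.19 ± 0.81, edgeR adjusted p = 0.0293), while its other arm, miR-47-3p, had a difference of -0.55 ± 0.49. From the X cluster, miR-4808-3p had 2, 9 and 6 reads and then 29, 158 and 311 (4.09 ± 0.62, edgeR adjusted p = 0.00277). miR-4923a, in the same cluster, had 6, 22 and 0 reads and then 62, 188 and 342 (4.02 ± 0.98, edgeR adjusted p = 0.0248). Both were lowest on day 10 in the AL library and highest in the IF library, and miR-4808-3p passed the filter only through day 10. The remaining rises were miR-1829c-5p (2.30 ± 0.59), miR-86-5p (2.26 ± 0.55), miR-43-3p (1.97 ± 0.53) and miR-4937 (1.76 ± 0.50), with edgeR adjusted p from 0.0248 to 0.0436. Of these, miR-1829c-5p, miR-86-5p and miR-4937 lie outside the naming rule and are given because all called miRNAs are listed here. With the 3 most abundant miRNAs left out of the totals, miR-47-5p, miR-49-3p, miR-62, miR-4923a and the last 4 were no longer called.

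**Figure D3:**
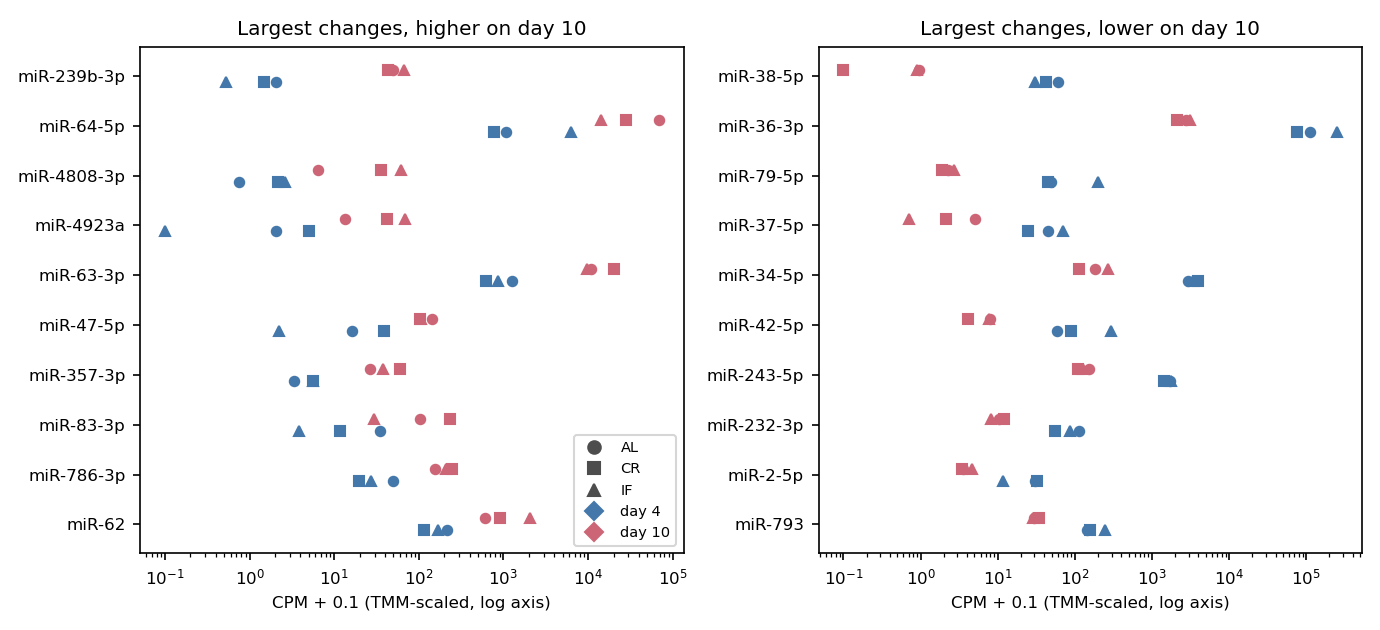
Level of the miRNAs with the largest called changes in each of the 6 libraries (CPM + 0.1, log axis), day 4 and day 10 side by side, points by diet. miR-36-3p and miR-34-5p fall to 3069 CPM or less and 266 CPM or less, and miR-63-3p rises to at least 9700 CPM.

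Both arms passed the filter in 54 hairpins. The arm with fewer reads was called in 8 of these (1 higher, 7 lower) and the arm with more reads in 9 (6 higher, 3 lower), shares close to the 16.1% called over all tested miRNAs. For mir-47 and mir-124, the 5p arm was the one with more reads only through the day 10 libraries, and for mir-243 only through the day 4 libraries. Both miR-47-5p and miR-243-5p were among the called arms with more reads, so these counts rest partly on the days compared. No hairpin had both arms called, and the fold changes of the arms had the same sign in 23 of 54. The hairpins below are those of miRNAs with large called changes, so their ratios describe that choice. For mir-79, log2 5p over 3p went from -1.97, -0.66 and 0.88 to -6.0, -5.49 and -5.84, and for mir-34 from 9.90, 9.91 and 8.65 to 3.83, 5.48 and 5.89. The mir-243 ratio went from 1.39, 2.21 and 4.85 to -1.63, -1.95 and -1.28, so that the more abundant arm was 5p in each young library and 3p in each old one. The mir-2 ratio was nearly the same in the 3 young libraries (-4.22, -4.19 and -4.19) and lower in each old one (-7.05, -6.73 and -6.61). For mir-239b it was 10.30, 9.10 and 11.15 on day 4 and 3.18, 3.23 and 3.53 on day 10, but the 3p arm had at most 6 reads in a young library and was tested only because of its day 10 reads, so the early ratios are imprecise.

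Of the 10 most abundant miRNAs, 2 were called, miR-36-3p and miR-64-5p, a share close to the 16.1% over all tested. miR-58a-3p, the most abundant, had a difference of -0.58 ± 0.38 (edgeR adjusted p = 0.337). miR-66-5p, from the same hairpin cluster as miR-64-5p, had 90261, 34021 and 22224 CPM on day 4 and 41894, 37038 and 25667 CPM on day 10, overlapping ranges. miR-84-5p, of the let-7 family, had a difference of 0.82 ± 0.54 and miR-80-3p, of the mir-58 family, one of 0.07 ± 0.47, neither past the threshold.

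Over the families, 10 of 55 tested arms were called, close to the 16.1% of all tested miRNAs. By direction, 8 were higher and 2 lower, beside 8.29% higher and 7.77% lower over all tested. The 8 include miR-47-5p, an arm chosen through its day 10 reads, so the split by direction is not read as a result. The mir-64 family had 1 of 4 guide arms called higher (median 1.11), the mir-2 family 1 of 4 (miR-43-3p, median 1.33), the mir-46 family 1 of 2 (miR-47-5p), the mir-50 family 1 of 3 (miR-62), and mir-49 with mir-83 both. miR-47-5p stands for its hairpin only through its day 10 reads. On day 4 it had 50, 171 and 5 reads, against 281, 343 and 133 for miR-47-3p, which was not called. Nothing is therefore read from the count for the mir-46 family. The mir-232 family had miR-357-3p called higher and miR-232-3p lower. For the mir-238 family, miR-238-3p was called higher, while miR-239a-5p had 35765, 12023 and 3858 CPM on day 4 and 1637, 2214 and 2682 CPM on day 10 (-2.47 ± 0.82, edgeR adjusted p = 0.073). As shares of reads miR-239a-5p had 2.16%, 1.48% and 0.347% and then 0.156%, 0.253% and 0.368%, lower on day 10 in AL and CR but not in IF. The let-7, lin-4, mir-51, mir-58, mir-44, mir-72, mir-75 and mir-87 families had 0 members called by edgeR, with medians of -0.24, -0.63, -0.24, -0.57, -0.15, 1.67, -0.10 and -0.31. Under total counts the medians of let-7, mir-51, mir-44, mir-75 and mir-87 turned positive. In the let-7 family of larval timing, let-7-5p had 3118, 1779 and 2958 CPM and then 1405, 1150 and 490 CPM (-1.45 ± 0.61, edgeR adjusted p = 0.148), and miR-48-5p had 36171, 11557 and 8018 CPM and then 53846, 42048 and 23757 CPM (1.34 ± 0.50, edgeR adjusted p = 0.105). lin-4-5p, the first miRNA of that pathway, had 321, 255 and 128 CPM and then 93.0, 110 and 64.1 CPM (-1.33 ± 0.50, edgeR adjusted p = 0.105).

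Of 11 miRNAs with lifespan phenotypes in worms, 2 were called higher (miR-83-3p and miR-238-3p) and 1 lower (miR-34-5p), where 8.29% of all tested were called higher and 7.77% lower, with a median of 0.07 beside 0.10 for all tested. With the 3 most abundant miRNAs left out of the totals that median was -0.07. On this list mir-124 stands by its 5p arm, which had more reads than its 3p arm only through the day 10 libraries. The median rests partly on that choice. miR-71-5p, which promotes long life, differed in direction between diets: 6483, 9827 and 276 CPM on day 4 and 2848, 1386 and 927 CPM on day 10, so that AL and CR were lower and IF higher on day 10 (-0.84 ± 0.94, edgeR adjusted p = 0.612). miR-228-5p, a glial and hypodermal miRNA, was higher in every diet on day 10, with 11799, 24292 and 42305 CPM against 69606, 81074 and 66416 CPM, and missed the threshold (1.65 ± 0.53, edgeR adjusted p = 0.0651). miR-246-3p, also of the lifespan list, had 2772, 5216 and 7893 CPM against 10308, 13246 and 10312 CPM (1.21 ± 0.55, edgeR adjusted p = 0.167).

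**Figure D4:**
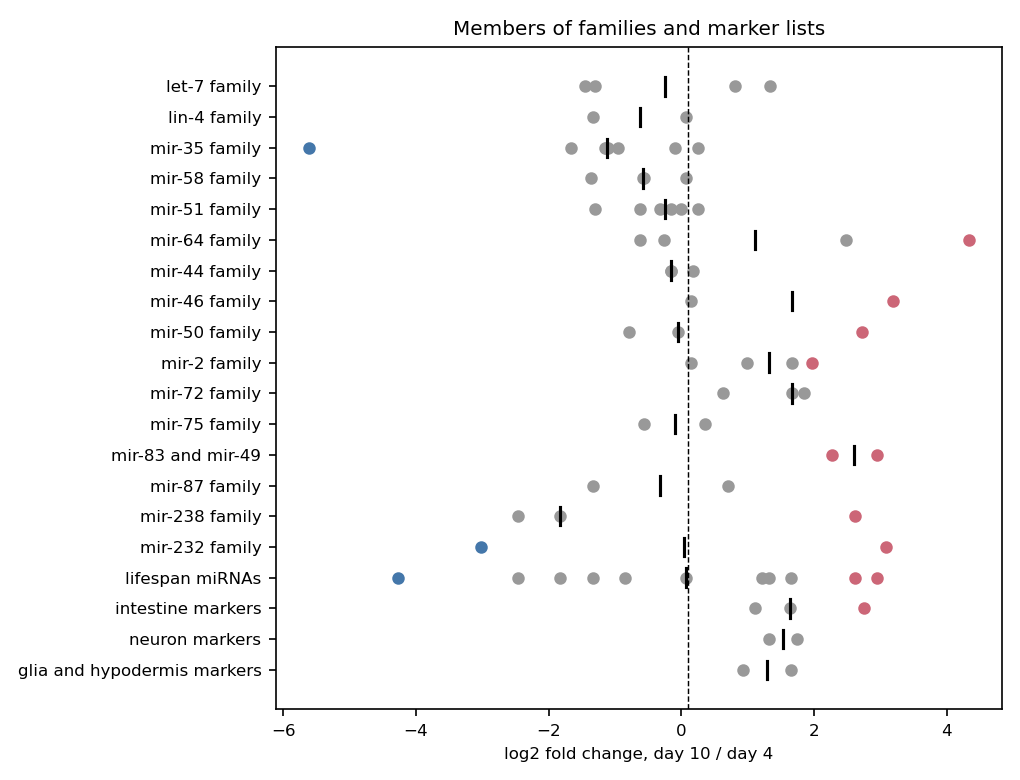
Log2 fold change from day 4 to day 10 of each tested member of the miRNA lists that had several tested members, with the list medians and called members marked. The muscle list and the mir-251 family are not drawn. The 8 mir-35 family members have a median of -1.11 and the 11 lifespan miRNAs one of 0.07.

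Of 8 tested markers of muscle, intestine, neurons, glia and hypodermis, 1 was called, beside 16.1% of all tested miRNAs. Of the 3 intestinal miRNAs, miR-786-3p was called and the summed level was 1077, 1363 and 540 CPM on day 4 and 2915, 2553 and 2464 CPM on day 10. Most of this sum was miR-240-5p, with 653, 1132 and 279 CPM and then 2053, 1626 and 1861 CPM. It was not called (1.64 ± 0.64, edgeR adjusted p = 0.114), nor was miR-60-3p (1.12 ± 0.53, edgeR adjusted p = 0.186). The other arm, miR-240-3p, had 21.9, 41.0 and 45.1 CPM and then 72.5, 34.4 and 36.9 CPM, lower on day 10 in CR and IF. Muscle miR-1-3p had 13574, 7828 and 4530 CPM and then 4322, 22191 and 2468 CPM, higher on day 10 only in CR (-0.39 ± 0.72, edgeR adjusted p = 0.785, and 0.03 under total counts). The neuronal arms on the list, miR-124-5p and miR-791-3p, summed to 7.41, 8.20 and 18.5 CPM and then 23.5, 53.2 and 24.7 CPM. On day 4 they had only 12, 18 and 19 reads and 11, 18 and 25 reads. miR-124-5p stands for its hairpin only through its day 10 reads. Over the day 4 libraries together miR-124-3p had more, with 25, 23 and 8 reads. The neuronal sum is therefore not read as a result. The other arm of mir-124, miR-124-3p, was also tested and low. It had 8.05, 5.24 and 3.37 CPM and then 4.53, 3.80 and 3.21 CPM, lower in every diet. Its difference of -0.47 ± 0.60 did not pass the threshold. The third neuronal miRNA, lsy-6-3p, did not pass the filter. The glial and hypodermal pair, miR-228-5p and miR-235-3p, made up 0.721%, 3.01% and 3.82% of reads on day 4 and 6.65%, 9.33% and 9.14% on day 10. Nearly all of these reads were miR-228-5p, with 0.712% in AL on day 4 and 9.11% in IF on day 10. miR-235-3p had 153, 110 and 200 CPM and then 275, 488 and 175 CPM, higher on day 10 in AL and CR and lower in IF. It did not pass the threshold (0.93 ± 0.61, edgeR adjusted p = 0.337). How far these tissue levels bear on the other changes was not tested.

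Day 6 libraries of the same diets place the changes in time. Fitted over the 9 libraries of days 4, 6 and 10, 32 of 214 miRNAs (15.0%) were called between day 4 and day 6, 12 higher (5.61%) and 20 lower (9.35%). Between day 6 and day 10, 71 (33.2%) were called, 37 higher (17.3%) and 34 lower (15.9%). These comparisons share libraries with each other and with that of day 10 against day 4. The counts rested on single libraries: left-out libraries gave 5 calls (without IF of day 6) to 40 (without IF of day 4) for the early interval and 31 (without all AL) to 77 (without IF of day 4) for the late one. miR-36-3p fell by 3.83 ± 0.47 on the log2 scale from day 4 to 6 (edgeR adjusted p = 0.000985) and by 1.70 ± 0.43 from day 6 to 10 (edgeR adjusted p = 0.0103). miR-34-5p fell by 1.70 ± 0.44 and then by 2.41 ± 0.45, both called. miR-243-5p had a difference of -0.39 ± 0.38 up to day 6 (edgeR adjusted p = 0.473) and fell by 3.13 ± 0.41 after it.

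Of the rising miRNAs, miR-239b-3p, miR-63-3p and miR-64-5p had early differences of -0.21, 0.21 and 1.0, none called, and late rises of 5.76 ± 0.60, 3.83 ± 0.47 and 3.33 ± 0.83, each called (edgeR adjusted p from 8.2e-05 to 0.00998). miR-239b-3p stood at 0.28 to 2.05 CPM in the 10 libraries of days 2 to 8 and at 43.1 to 67.3 CPM in the 3 libraries of day 10, scaled over all 13. miR-1829c-5p moved in both directions, by -2.84 ± 0.49 and then 5.27 ± 0.53. miR-49-3p had an early difference of -0.86 (not called) and a late rise of 3.31 ± 0.41.

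**Figure D5:**
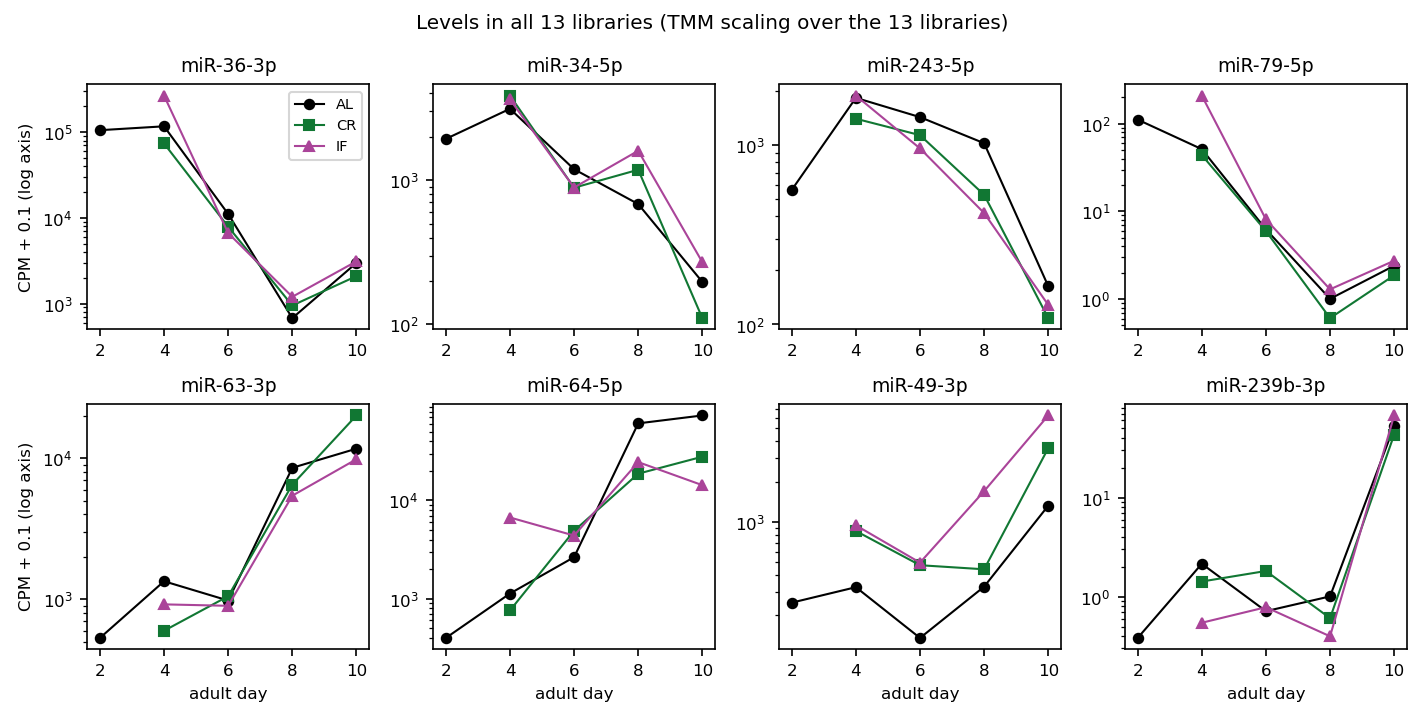
Levels of selected called miRNAs on days 2 to 10 by diet (CPM + 0.1 scaled over all 13 libraries, log axis). miR-36-3p is already lower on day 6, and miR-239b-3p stays at or below 2.05 CPM until day 10.

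By position, called miRNAs came from 10 groups of neighbouring hairpins (same strand, gaps of 10000 bp or less), among others. The cluster mir-35 to mir-41 had 12 arms tested, 0 called higher and 3 lower, with a median of -1.29, beside 8.29% higher and 7.77% lower over all tested. miR-38-5p, 1 of the 3, was tested only because of its day 4 reads, so the count for that cluster is not read either. The chromosome X cluster at 1872466 to 1880038 (plus strand) had 7 of its arms tested, of which 2, miR-4808-3p and miR-4923a, were called higher. miR-4808-3p was tested only because of its day 10 reads, so nothing is read from the count for this cluster. The fold changes of the 5 others, from 0.18 to 1.3, did not pass the threshold. The cluster of mir-240 and mir-786 on chromosome X (7882622 to 7882840, plus strand) had 3 arms tested, of which miR-786-3p was called higher. Neighbours did not always move together: in the cluster of mir-42, mir-43 and mir-44 (chromosome II, 11889811 to 11890118, plus strand) miR-42-5p was called lower and miR-43-3p higher, and in that of mir-229, mir-64, mir-65 and mir-66 miR-64-5p was called higher and miR-229-3p lower.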

How the data were processed

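Total RNA of whole worms was size-selected at 18 to 30 nt on a 6% polyacrylamide gel and made into libraries with an Illumina small RNA kit, version 1.5, per the labels' protocols. The authors deposited unscaled read counts, 447 entries to a library, each a mature miRNA with its precursor (per the file headers). Which aligner, counter, annotation release or filters they used was not given in the sources used here. No molecular identifiers are mentioned, so intervals cover counting error only.

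Entries of 1 mature name were collapsed to the highest count, leaving 434 miRNAs and removing at most 0.219% of a library's reads. In the 6 libraries 193 passed the filter; of the 241 that did not, 87 had no read, and 5 tested passed only through day 10 and 2 only through day 4. edgeR 4.0.16 in R 4.3.3 fitted day with diet as a block, on TMM-scaled counts, with a two-sided quasi-likelihood test and Benjamini-Hochberg adjustment at 0.05 over all tested. SE is the log2 fold change over the square root of F. Diet was kept as a block because the comparison pairs by diet. The correlations of the deviations were not the ground for it and showed no clear pairing. They were 0.177, -0.0963 and 0.093 for same-diet libraries, beside -0.189 to 0.152 for libraries of different diets. On simulated data of 193 miRNAs, 3 of 20 changed 2-fold and 12 of 20 changed 4-fold were recovered, and 2 of 153 unchanged were called.

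Named miRNAs are the 10 largest called changes in each direction, list members (each hairpin stands for its arm with more reads over the 6 libraries), other arms of named ones and the most abundant 10. Members and lists were chosen with earlier results of these data known. Alternatives were DESeq2 1.42.0, limma-voom 3.58.1, other scalings, filters and models, and left-out libraries, with 2 more (DESeq2 and limma-voom without AL) added after the results were seen. Positions are those of Ensembl release 115 (WBcel235), matched by name for 247 of 250 precursors, and intergenic means no protein-coding gene contains the hairpin. Python 3.11.15 with pandas 2.3.3 and matplotlib 3.10.9 made the tables and plots.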

Additional observations from a re-analysis of the deposited data

Results flagged for a closer look

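Several miRNAs moved in opposite directions in different diets between day 4 and day 10. With 1 library per diet and day, none of these differences was tested. The values are log2 ratios of day 10 to day 4 in AL, CR and IF, and the span is the largest minus the smallest.

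miR-1-3p, of muscle, had ratios of -1.65, 1.5 and -0.88, a span of 3.15. miR-71-5p had -1.19, -2.83 and 1.74, a span of 4.57. miR-44-3p and miR-45-3p, which carry the same reads, had 2.08, -1.26 and -0.98, a span of 3.34 each, and miR-44-5p had 1.19, 0.32 and -1.48, a span of 2.66. miR-52-3p had -1.71, -1.52 and 2.36, a span of 4.07. For miR-61-5p the ratios were -2.10, -1.91 and 1.13, with a span of 3.23, and for miR-238-5p they were -1.25, 1.62 and 3.12, with a span of 4.37. Arms with a mean under 10 CPM showed spans of 2.14 for miR-232-5p, 4.03 for miR-55-5p, 4.98 for miR-64-3p, 4.38 for miR-65-3p and 2.9 for miR-73-5p.

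miR-62 stood out in the day 8 libraries, which the comparison does not use. Its lowest level on day 8 was 5.45 times its highest on days 4 and 10, with 11420, 18250 and 23090 CPM in AL, CR and IF on day 8 against at most 2096 CPM.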

How the results depend on the processing

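Under 11 other tools, scalings, filters and models, the 31 called miRNAs kept their sign in each setting in which they were tested, and 17 kept their call in each of these; the filter of 100 reads tested only 23 of the 31. Against 16 higher and 15 lower on day 10, DESeq2 gave 28 lower, total counts 9 lower, total counts without the 3 most abundant miRNAs 8 higher, the 9-library fit 35 and 26, and the 12-library fit 37 and 36. Without the diet block, the no-pairing fit called 18 higher and 22 lower. With limma-voom and AL left out (added after seeing the data), 0 and 0 passed. Leaving out libraries gave 0 to 20 higher and 0 to 22 lower. Between day 4 and day 6, total counts called 90 miRNAs in place of 32, and leaving out libraries gave 5 to 40; between day 6 and day 10, 31 to 77 in place of 71. The causes were not tested. The fit had 2 residual degrees of freedom and a prior of 7.17. At this depth, 154 miRNAs with reads stayed below the filter and were not tested, and 42 tested ones averaged under 10 CPM.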

Other observations

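On day 8, which the comparison leaves out, several called miRNAs did not lie between their day 6 and day 10 levels (CPM scaled over all 13 libraries). miR-36-3p had 676, 949 and 1199 CPM in AL, CR and IF on day 8, below the 2980, 2089 and 3111 CPM of day 10 in each diet. miR-79-5p had 0.907, 0.507 and 1.19 CPM on day 8, also below day 10 in each diet, but near the floor. In these day 8 libraries 3 reads correspond to 0.677, 1.041 and 0.727 CPM before TMM scaling. On day 10 miR-79-5p had 10, 8 and 13 reads, so its difference rests on a few reads. The let-7 family member miR-48-5p, not called between day 4 and day 10, reached 669000, 571000 and 325200 CPM on day 8 against at most 57420 CPM on days 4, 6 and 10. miR-64-5p was already at 60800, 18700 and 24530 CPM on day 8. None of these day 8 differences was tested here.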
